A study of Rattus norvegicus with 24 samples.

Results

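The genes described are the NR4A nuclear receptors and the immediate-early transcription factors of rat skeletal muscle. They were taken by symbol from a list of 10, namely Nr4a1, Nr4a2, Nr4a3, Egr1, Fos, Junb, Jun, Maff, Atf3 and Ier2. Of these, 8 were present among the 10851 genes of the table, and Junb and Ier2 were not analysed here. The list was drawn up with results of the same 24 rats in view, so the Log2FC and adjusted p-values of its members describe the members and are no independent test of them.

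RNA-seq of the medial gastrocnemius was available for 24 male Wistar rats, 1 library per animal and 6 rats in each of 4 groups. The Sed group received saline and stayed sedentary, and the Ex group received saline and trained on a treadmill. The cardiac cachexia (CC) groups received a single injection of monocrotaline, a plant alkaloid that damages the lung vessels and leads to right heart failure, and were either kept sedentary (CC-Sed) or trained (CC-Ex). The study excluded injected rats without right ventricle remodeling, so the CC groups hold survivors that met its criteria, and the labels give no age. Muscle was taken days, not hours, after the final running test.

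Immediate-early genes are transcribed within minutes of a stimulus, from factors already present in the cell, and their mRNAs are short-lived. In muscle they respond to contraction, calcium, β-adrenergic signaling and stress, through kinases that act on CREB, on serum response factor (SRF) and on its cofactors. The NR4A receptors are orphan nuclear receptors that bind DNA without a known physiological hormone, and in muscle they are known for the control of glucose and lipid use. Egr1 is a zinc-finger factor, Fos and Jun form the AP-1 dimer, Maff is a small MAF protein without an activation domain of its own, and Atf3 is a stress-induced factor of the CREB/ATF family.

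The promoters of such genes carry the sites through which these signals act, so the window of 250 bases before the annotated start was searched. Sequences of this window in the RefSeq annotation of GRCr8 were at hand for Nr4a1, Nr4a2, Maff and Egr1, and Nr4a3, Fos, Jun and Atf3 are named only. The windows of Nr4a1 and Nr4a2 are shown because these receptors varied together between rats, and that of Maff because it was called in both CC comparisons. Capitals mark matches, on either strand, to the cAMP response element (CRE, TGACGTCA), to its core TGACG, to the EGR site GCGNGGGCG, to the AP-1 site TGANTCA, to the NR4A monomer site NBRE (AAAGGTCA) or to the SRF site (CArG box). Every CRE also holds the core on each strand. For Nr4a1 and Nr4a2 the window precedes a transcript start that lies inside the annotated gene.
Nr4a1, GRCr8 chr7:134259888-134260137, plus strand: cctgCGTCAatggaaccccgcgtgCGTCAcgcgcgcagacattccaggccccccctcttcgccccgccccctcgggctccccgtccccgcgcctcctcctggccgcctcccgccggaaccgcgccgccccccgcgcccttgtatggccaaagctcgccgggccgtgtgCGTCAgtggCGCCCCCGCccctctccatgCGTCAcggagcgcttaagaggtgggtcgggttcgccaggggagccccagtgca
Nr4a2, GRCr8 chr3:62104888-62105137, minus strand: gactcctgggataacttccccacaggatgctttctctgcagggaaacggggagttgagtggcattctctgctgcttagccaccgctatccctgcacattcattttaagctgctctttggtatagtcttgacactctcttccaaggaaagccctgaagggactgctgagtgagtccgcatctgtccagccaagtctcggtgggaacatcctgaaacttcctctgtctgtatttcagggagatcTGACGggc
Maff, GRCr8 chr7:112792537-112792786, plus strand: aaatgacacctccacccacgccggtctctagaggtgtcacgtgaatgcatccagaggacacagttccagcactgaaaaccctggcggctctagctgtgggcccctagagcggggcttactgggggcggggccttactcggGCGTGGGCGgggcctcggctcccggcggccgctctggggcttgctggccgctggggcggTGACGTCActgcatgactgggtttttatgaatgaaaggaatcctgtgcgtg

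The Maff window holds 1 full CRE, whose farthest base lies 51 bases before the start, and 1 EGR site. The full CRE was found in 1.59% of 33469 rat promoter windows of the same length and the EGR site in 4.29%. The Nr4a1 window holds 4 copies of the core TGACG and 1 EGR site, and the Nr4a2 window holds 1 core. At least 1 core was present in 18.2% of all windows. The Egr1 window, not printed here, holds 2 cores and 2 CArG boxes, the latter a motif found in 1.5% of windows. None of these 4 windows holds an AP-1 site or an NBRE. These matches are descriptions of letters and say nothing of binding.

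Estimated counts were quantified by the authors, and total counts per rat lay between 37816239 and 50350554. Levels are given as TMM-scaled CPM, that is counts relative to the library total. CPM are not scaled by transcript length, so levels are compared between rats and not between genes. CC-Ex replicate 5 stood apart from the other rats on the first principal component of log2 CPM. It lay at 96.5 units against -16.7 to 16.8 in the rest of its group. The next rats on this axis were CC-Sed replicates 6, 1 and 3, at 51.7, 47.45 and 35.6. Without CC-Ex replicate 5 the called genes of the whole table in Ex vs. CC-Ex fell from 57 to 3. The same count was 2 or 3 without any 1 Ex rat and 2 without CC-Ex replicate 6. The fall was thus not particular to CC-Ex replicate 5. The calls in that comparison, and the correlations of Maff, in which CC-Ex replicate 5 was the highest of all, are also given without that rat. Skeletal muscle markers such as Ckm and Acta1 were abundant in every group (mean CPM of 21675 to 25216 for Ckm), whereas the slow myosin heavy chain Myh7 was not analysed here. In bulk muscle, a change in the share of a cell type and a change in RNA per cell cannot be told apart.

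In the CC comparisons the 8 genes did not move as a block. In Sed vs. CC-Sed, Nr4a3 and Maff were higher in CC-Sed, and 7 of the 8 Log2FC were above 0, as were 52.5% of those of all genes. In Ex vs. CC-Ex, Maff alone passed the test, again higher in the CC rats, and 4 of the 8 Log2FC were above 0, against 51.6% over all genes. A gene was called differentially expressed (DEG) when its edgeR quasi-likelihood adjusted p was below 0.05 over all genes and its Log2FC at least 1 in size. By this rule 1.87% of all genes were called in Sed vs. CC-Sed and 0.525% in Ex vs. CC-Ex, beside 2 and 1 of the 8 members. As the members were chosen on these comparisons, nothing is read from those shares.

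**Figure D1:**
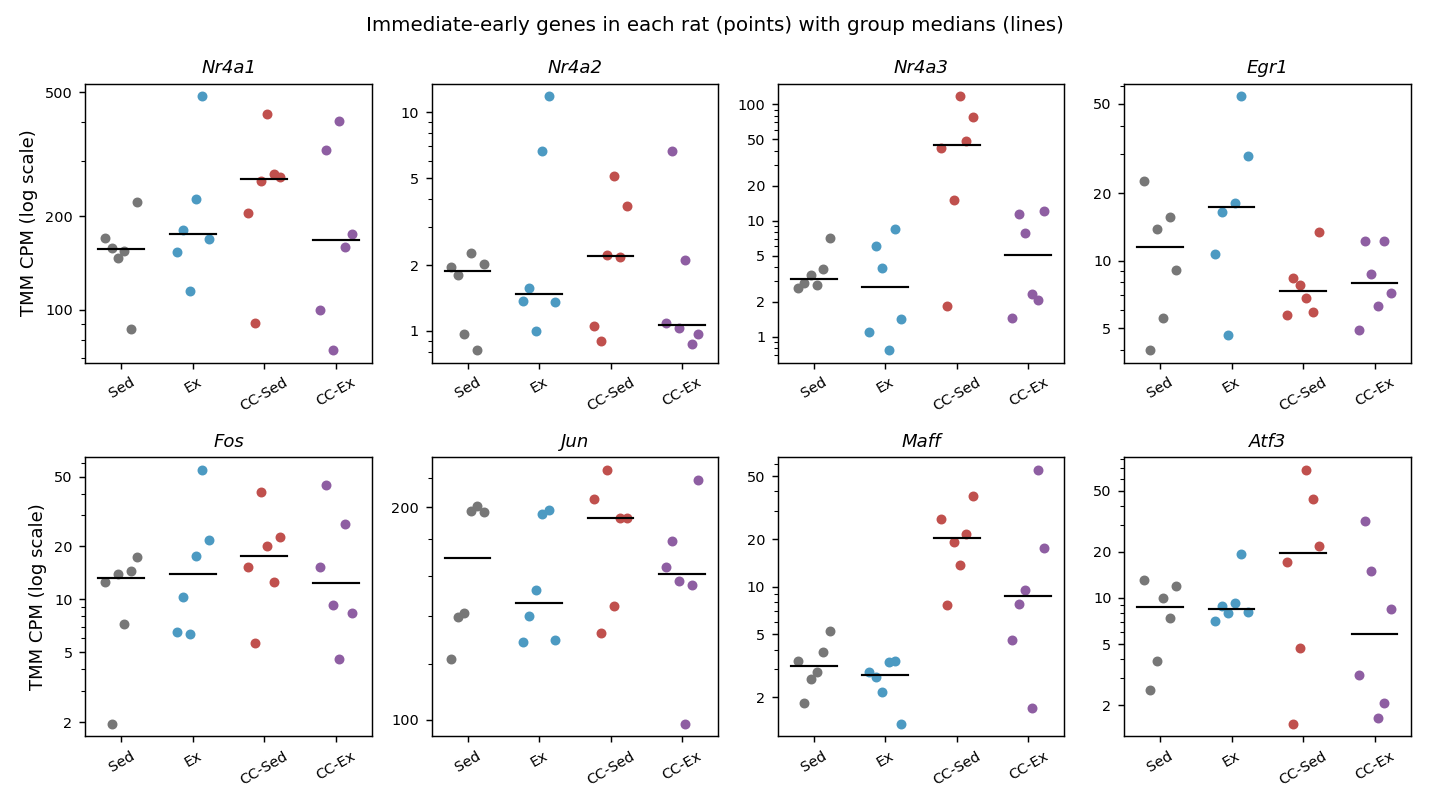
TMM CPM of the 8 genes on log axes, with 1 point per rat (6 in each group) and a line at the group median. For Nr4a3, 5 of the 6 CC-Sed rats lie above all Sed rats, for Maff all 6 do, and Jun lies between 98.7 and 226 in every rat.

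Nr4a3, the NR4A receptor known to follow β-adrenergic signaling in muscle, had the largest difference among the members. Its CPM in the Sed rats, replicates 1 to 6, was 2.64, 2.91, 3.42, 2.80, 3.85 and 7.13. In the CC-Sed rats it was 41.9, 1.85, 14.9, 117, 48.04 and 78.3. Thus 5 of the 6 CC-Sed rats lay above every Sed rat, while CC-Sed replicate 2 lay below all of them, so the groups overlapped. The mean rose from 3.79 ± 1.69 to 50.4 ± 42.4 CPM (SD, n = 6 each), a Log2FC of 3.73 (SE 0.764, 13.3-fold, edgeR adjusted p = 0.0116).

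The trained rats gave another picture for Nr4a3. The Ex rats had 1.11, 6.00, 3.94, 0.772, 8.43 and 1.43 CPM, and the CC-Ex rats had 1.44, 11.5, 7.78, 2.35, 2.06 and 12.1 CPM. These groups overlapped widely, with a Log2FC of 0.78 (SE 0.705, edgeR adjusted p = 0.497). The highest CC-Ex rat (12.1 CPM) lay below 5 of the 6 CC-Sed rats. In CC-Sed vs. CC-Ex the Log2FC of Nr4a3 was -3.02 (SE 0.737, 8.11-fold lower in CC-Ex), with an unadjusted p of 0.000445 and an edgeR adjusted p of 1.00 over all genes. The interaction, that is the CC effect among trained rats minus that among sedentary ones, was -2.95 on the log2 scale (SE 1.00, unadjusted p = 0.00734, edgeR adjusted p = 1.00). It therefore failed the correction over all genes. Between -2.50 and -3.25 was obtained for this interaction when any 1 rat was left out.

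The whole table gave no DEG in CC-Sed vs. CC-Ex or in the interaction by edgeR, DESeq2 or limma-voom. Unadjusted edgeR p-values below 0.05 were held by 234 genes (2.16%) in CC-Sed vs. CC-Ex and by 154 genes (1.42%) in the interaction, with Nr4a3 the 1 member among them in each. Of the 8 members, 1 had a Log2FC above 0 in CC-Sed vs. CC-Ex (median -0.27, against 0.0099 for all genes). In the interaction 0 of the 8 did (median -0.85, against 0.0044), although Jun and Maff had only -0.090 and -0.063. As the members were chosen on these rats, nothing is read from these signs. Sed vs. Ex also had 0 DEGs by the 3 tools, with 118 genes (1.09%) and no member below an unadjusted p of 0.05. The comparisons that involve the same group share its rats, so their values are set side by side and not counted as separate evidence.

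**Figure D2:**
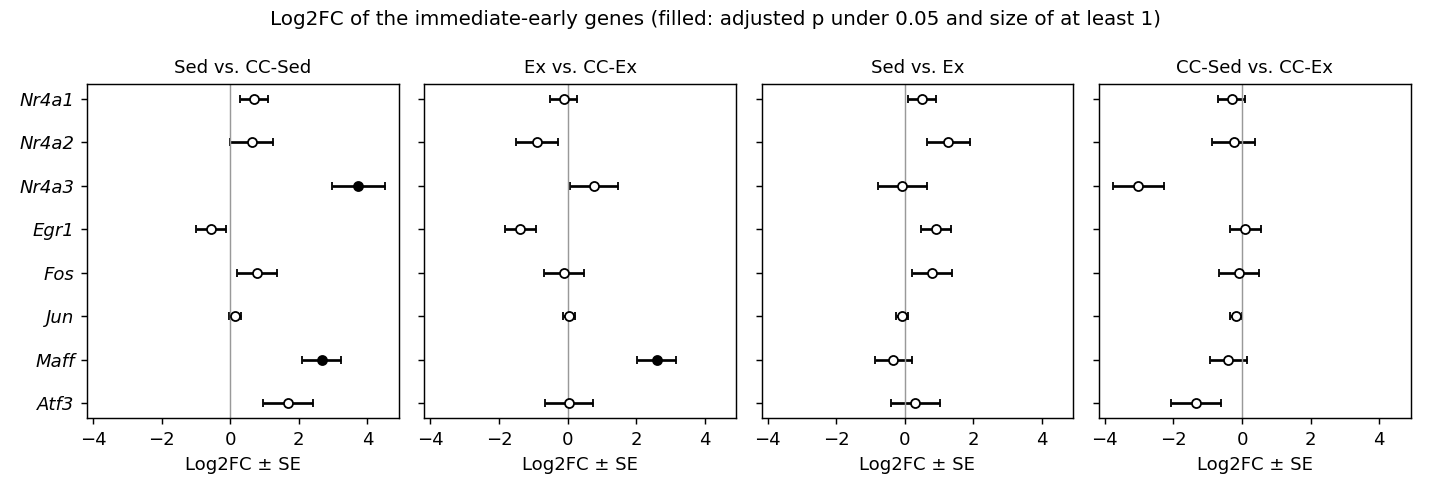
Log2FC with its SE (bars) of the 8 genes, with 1 panel per comparison, each as the second group minus the first. Filled points, which passed the test, are Nr4a3 (3.73) and Maff (2.66) in the first panel and Maff (2.60) in the next.

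Nr4a1, the NR4A receptor linked in muscle to genes of glucose use and to fiber size, was measured at 86.6 to 222 CPM in Sed (median 156) and at 90.4 to 425 CPM in CC-Sed (median 263). In the trained rats it ranged from 115 to 485 CPM in Ex (median 175) and from 74.3 to 403 CPM in CC-Ex (median 167). All 4 groups overlapped. Its Log2FC was 0.69 (SE 0.396, edgeR adjusted p = 0.247) in Sed vs. CC-Sed and -0.10 (SE 0.395, edgeR adjusted p = 0.884) in Ex vs. CC-Ex. Without Ex replicate 5, the latter turned to 0.29.

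Nr4a2 is the receptor best known from dopamine neurons. Its CPM ranged from 0.820 to 2.28 in Sed and from 0.901 to 5.11 in CC-Sed, and from 1.00 to 11.8 in Ex and from 0.868 to 6.65 in CC-Ex, with medians of 1.88, 2.20, 1.47 and 1.06. A few high rats set the upper ends, namely Ex replicates 4 and 5 (6.64 and 11.8 CPM) and CC-Ex replicate 2 (6.65 CPM). The Log2FC was 0.62 (SE 0.627) in Sed vs. CC-Sed, -0.89 (SE 0.618) in Ex vs. CC-Ex and 1.27 (SE 0.627) in Sed vs. Ex, none of which passed the test. Without Ex replicate 5 the value in Sed vs. Ex was 0.54.

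Egr1 was the member with a Log2FC below 0 in both CC comparisons. In Sed it ranged from 4.00 to 22.8 CPM (median 11.5) and in CC-Sed from 5.74 to 13.5 CPM (median 7.29), with a Log2FC of -0.56 (SE 0.447, edgeR adjusted p = 0.414). In Ex it ranged from 4.67 to 54.02 CPM (median 17.3) and in CC-Ex from 4.91 to 12.2 CPM (median 7.97). None of the CC-Ex rats reached the Ex median, but the lowest Ex rat lay below all of them. The Log2FC in Ex vs. CC-Ex was -1.37 (SE 0.451, unadjusted p = 0.00575, edgeR adjusted p = 0.0994). DESeq2 called this difference (adjusted p = 0.0328), whereas edgeR did not, and without Ex replicate 5 the edgeR Log2FC was -0.89 (adjusted p = 0.236).

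Markers of fibroblasts moved in the same comparison as Egr1. All 6 fibroblast markers had a Log2FC below 0 in Ex vs. CC-Ex (median -1.51), of which 3 had an unadjusted edgeR p below 0.05 and none was a DEG. The 3 were the collagens Col1a1, Col1a2 and Col3a1, whereas Lum had -1.22, Pdgfra -0.52 and Dcn -0.23. At that threshold 7.72% of all genes were lower. All 3 nerve markers present were lower too, as were 2 of 5 smooth muscle markers, with 1 of those 5 higher. The summed level of the 6 fibroblast markers was 830 to 4962 CPM in Ex and 151 to 1571 CPM in CC-Ex. Across the 24 rats, with group means subtracted, the correlation of Egr1 with this sum was 0.176. The part of any of these cell types in the Egr1 difference was not tested.

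Fos, the partner of the AP-1 dimer that is induced from a low base, ranged from 1.96 to 17.5 CPM in Sed, 6.33 to 54.4 in Ex, 5.66 to 40.7 in CC-Sed and 4.56 to 44.5 in CC-Ex, with medians of 13.3, 14.0, 17.7 and 12.3. No pair of groups was apart. Its Log2FC was 0.79 (SE 0.591, edgeR adjusted p = 0.385) in Sed vs. CC-Sed and -0.10 (SE 0.586, edgeR adjusted p = 0.927) in Ex vs. CC-Ex. Jun, its partner, was the steadiest member, at 122 to 200.4 CPM in Sed, 129 to 198 in Ex, 132 to 226 in CC-Sed and 98.7 to 219 in CC-Ex. The Log2FC of Jun was 0.13 (SE 0.179) and 0.043 (SE 0.179) in the CC comparisons, and its edgeR adjusted p was 0.643 and 0.894.

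Maff, a small MAF protein that pairs with CNC factors such as Nfe2l2 and Bach1 at stress-response elements, was higher in the CC rats of both comparisons. The Sed rats had 3.40, 1.84, 2.61, 2.91, 3.85 and 5.27 CPM, and the CC-Sed rats had 26.6, 7.64, 19.1, 13.8, 21.6 and 37.2 CPM. These groups did not overlap, a separation upwards that 2.32% of all genes had. The Log2FC was 2.66 (SE 0.567, 6.34-fold, edgeR adjusted p = 0.0137).

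Among the trained rats, Maff was at 2.87, 2.68, 2.15, 3.34, 3.39 and 1.363 CPM in Ex and at 4.58, 7.77, 9.58, 1.70, 54.7 and 17.6 CPM in CC-Ex. Thus 5 of the 6 CC-Ex rats lay above every Ex rat and CC-Ex replicate 4 lay within the Ex range. The Log2FC was 2.60 (SE 0.568, 6.07-fold, edgeR adjusted p = 0.0329). Without CC-Ex replicate 5, the rat that stood apart, it was 1.63 (adjusted p = 0.106). Among 12 fits, each without 1 rat of the comparison, the call held in 4 and was lost in the others, in which the Log2FC lay between 1.63 and 2.69. The lost fits were those without any 1 Ex rat or without CC-Ex replicate 5 or 6. The call was also lost with upper-quartile factors (adjusted p = 0.0516), when only the 12 rats compared were fitted (adjusted p = 0.169) and with the replicate number as a block (adjusted p = 0.0788). The interaction for Maff was -0.063 (SE 0.765, unadjusted p = 0.935).

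Atf3, the repressor or activator induced by many forms of cell stress, spread most widely in the CC rats. It ranged from 2.52 to 13.1 CPM in Sed (median 8.73) and from 7.04 to 19.3 in Ex (median 8.50). In the CC-Sed rats it was 17.2, 1.52, 4.71, 68.2, 44.3 and 21.9 CPM, and in the CC-Ex rats 3.14, 31.6, 15.0, 1.66, 2.06 and 8.50 CPM. The highest CC-Sed rat was 44.9-fold above the lowest, against 5.18-fold in Sed. Its Log2FC was 1.69 (SE 0.724, unadjusted p = 0.0287, edgeR adjusted p = 0.135) in Sed vs. CC-Sed and 0.038 (SE 0.708, edgeR adjusted p = 0.98) in Ex vs. CC-Ex, so no difference was called.

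Rats of the same group differed more in these genes than in most others. The SD of log2 CPM within groups was 0.301 for the median gene. It was 1.47 for Nr4a3, 1.43 for Atf3, 1.13 for Fos, 1.07 for Nr4a2, 1.00 for Maff, 0.841 for Egr1 and 0.733 for Nr4a1, which put these 7 genes between the 93.2 and 99.6 percentile of all genes. Jun, at 0.322, lay at the 54.5 percentile. These SD pool the 4 groups, which were uneven. For Nr4a3 the SD was 0.525, 1.39, 2.16 and 1.35 in Sed, Ex, CC-Sed and CC-Ex, and for Maff 0.510, 0.486, 0.792 and 1.69. Egr1 spread more in the saline groups, at 0.947, 1.21, 0.449 and 0.525 in the same order. Some rats were high or low in most members together. Ex replicate 5 was the highest of its group in all 8 genes and CC-Sed replicate 2 the lowest of its group in 7, Egr1 being the exception. The total counts of these 2 rats were 46699765 and 39586381, within the range of the others.

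**Figure D3:**
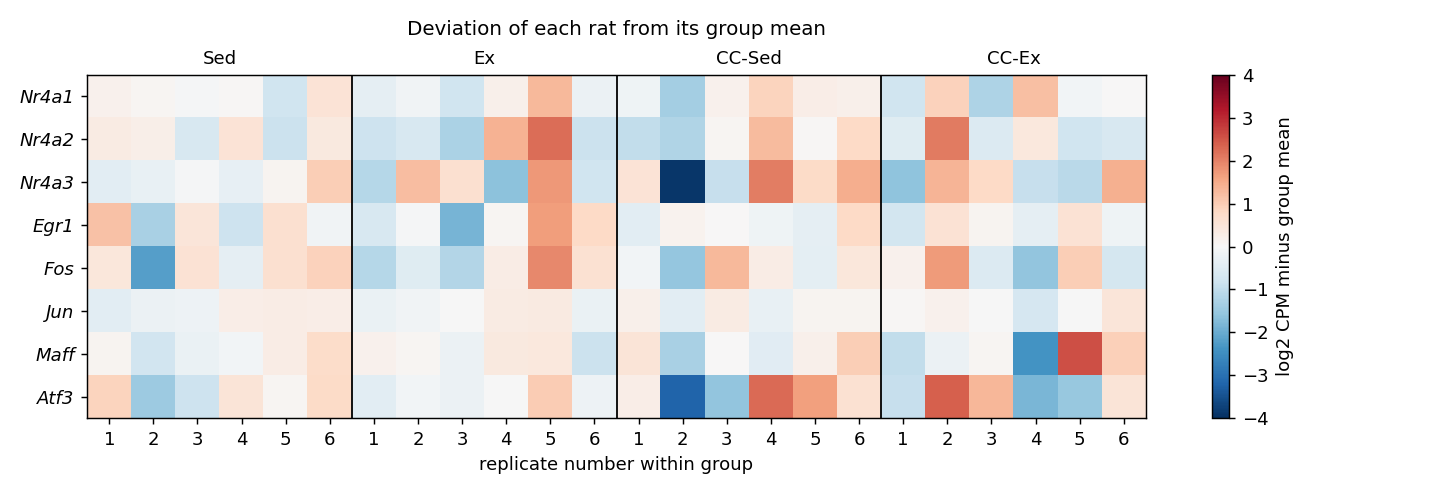
Log2 CPM minus the group mean for the 8 genes (rows) in the 24 rats (columns, replicate numbers within each group), red above and blue below the mean. The column of Ex replicate 5 is above the mean in all 8 rows and that of CC-Sed replicate 2 below it in 7.

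With the group means subtracted, the 28 pairs of members had a median Pearson r of 0.363 over the 24 rats, from -0.009 to 0.795. Nr4a3 and Atf3 had r = 0.795 and Spearman's rho = 0.739 (two-sided permutation p = 0.00011 and 0.00038, adjusted over 28 pairs 0.00154 and 0.00532). Nr4a1 and Nr4a2 had r = 0.794 and rho = 0.848 (permutation p = 2e-05 and 4e-05, adjusted 0.00056 and 0.00112). Egr1 and Fos had r = 0.703 and rho = 0.679 (permutation p = 0.00025 and 0.00064, adjusted 0.00233 and 0.00597). These were the 3 pairs below an adjusted p of 0.05 by both measures. Because the list was drawn up with these rats in view, the p-values describe the pairs and are no independent test. The share of other gene pairs that reach such values was not computed. Without the 2 rats farthest from the median of the first gene, r of the 3 pairs was 0.662, 0.729 and 0.627 in the same order.

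Within groups the same pairs varied. The r of Nr4a3 with Atf3 was 0.944 in CC-Sed and 0.862 in CC-Ex but 0.270 in Sed and 0.610 in Ex. Nr4a1 and Nr4a2 had between 0.688 and 0.926 in every group, and Egr1 and Fos had between 0.156 (CC-Sed) and 0.928 (Ex). Each of these rests on 6 rats and was not tested. The rats entered each pair with the same library, so its depth and quality are shared by both genes. For Maff the correlations with the NR4A receptors rested in part on CC-Ex replicate 5. Over the 24 rats they were -0.009, -0.0073 and 0.324 for Nr4a1, Nr4a2 and Nr4a3 (permutation p = 0.976, 0.975 and 0.154, adjusted 0.976, 0.976 and 0.227), with rho of 0.151, 0.0496 and 0.328 (permutation p = 0.526, 0.823 and 0.158). Without that rat r was 0.0225, 0.143 and 0.577, and the r of Maff with Atf3 moved from 0.282 to 0.596 and with Jun from 0.578 to 0.763. The 3 pairs named above had 0.787, 0.801 and 0.693 without it.

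**Figure D4:**
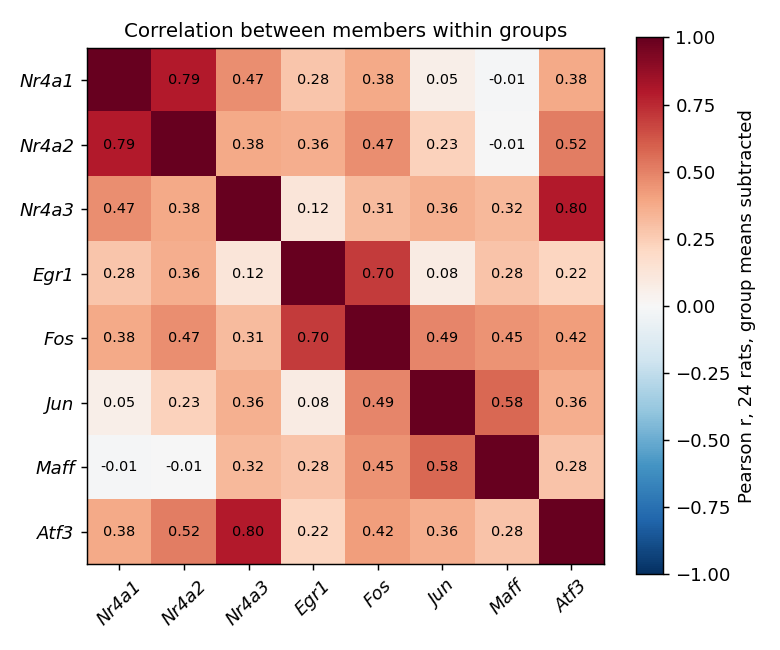
Pearson r between the 8 genes over 24 rats, after subtraction of the group means from log2 CPM. The highest cells are Nr4a3 with Atf3 (0.795), Nr4a1 with Nr4a2 (0.794) and Egr1 with Fos (0.703).

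The genes most like each member, over the same 24 rats and by the same r, were sought among all genes that are not members. For Maff they were Pim3 (0.949), a serine/threonine kinase, Ppp1r15a (0.93), which directs the dephosphorylation of eIF2α, and Tcp11l2 (0.901). Of these, Pim3 was a DEG in both CC comparisons (Log2FC 1.96 and 1.65, SE 0.364 and 0.360, edgeR adjusted p = 0.00596 and 0.0329) and Tcp11l2 in Sed vs. CC-Sed (Log2FC 1.17, SE 0.327, edgeR adjusted p = 0.0396). Without CC-Ex replicate 5 the r with Maff was 0.919, 0.882 and 0.831 in the same order. The call of Pim3 in Sed vs. CC-Sed held in each of the 12 fits without 1 rat and that of Tcp11l2 in 2, those without CC-Sed replicate 2 or 4. The call of Pim3 in Ex vs. CC-Ex held in 4 of 12 and was lost without any 1 Ex rat or without CC-Ex replicate 5 or 6 (Log2FC 1.15 and adjusted p = 0.0968 without replicate 5), as it was with upper-quartile factors, with only the rats compared and with the block. For Atf3 they were Phlda1 (0.909), Vtcn1 (0.824) and Ptprr (0.819), and for Nr4a3 they were Phlda1 (0.772), Vgll2 (0.759) and Asb5 (0.709). Phlda1, itself a growth factor-induced gene, had a mean of 3.56 CPM in the Sed rats and of 13.2 in the CC-Sed rats, and of 5.03 and 5.07 in their trained counterparts, with a difference between the sedentary groups under the threshold (Log2FC in Sed vs. CC-Sed 1.89, SE 0.580, edgeR adjusted p = 0.0515).

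Coq10b, a mitochondrial coenzyme Q-binding protein, led both for Nr4a1 (0.726) and for Nr4a2 (0.827). Nr4a1 was further followed by Usp2 (0.711) and Zfp36 (0.648), and Nr4a2 by Tcim (0.773) and Plk3 (0.749). Apold1 stood in the lists of Egr1 (0.71) and Fos (0.689), the former with Gja1 (0.742) and Slc1a4 (0.684) and the latter with Ccn1 (0.695) and Gem (0.679). Jun was most like Hcfc2 (0.828), Art1 (0.777) and Rbp7 (0.729). Each value is the outcome of a search through the whole table and is given without a p. By Spearman's rho, Fos kept 0 of its 3 genes, Egr1 and Atf3 kept 1 each and the other members 2 or 3. Without subtraction of the group means, Egr1 kept 0, Nr4a1 and Nr4a3 kept 1 each and the others 2 or 3.

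The other immediate-early genes were followed in a list of 35, of which 24 were present. In Sed vs. CC-Sed, 5 of the 24 rose and none fell, where 1.38% of all genes rose and 0.488% fell. They were Cebpd, a C/EBP factor of the inflammatory response (Log2FC 2.58, SE 0.577, edgeR adjusted p = 0.0147), Gadd45b, a stress sensor (1.78, SE 0.406, 0.0159), Nfil3, a bZIP repressor (1.72, SE 0.443, 0.0274), Sik1, a salt-inducible kinase and CREB target (1.63, SE 0.453, 0.0383), and Btg2, an antiproliferative factor (1.16, SE 0.336, 0.0446). Their mean CPM in Sed and CC-Sed was 13.0 and 77.7 for Cebpd, 25.4 and 83.4 for Nfil3 and 11.4 and 35.2 for Sik1. The median Log2FC of the 24 genes was 0.84 against 0.021 for all genes, and 15 of them had an unadjusted p below 0.05 and were higher, as did 16.7% of all genes. Among the 12 fits without 1 rat, the calls of Cebpd and Gadd45b held in all 12, that of Nfil3 in 6, of Sik1 in 3 and of Btg2 in 2. The count of 5 was 8 without CC-Sed replicate 4, 2 or 3 without any 1 Sed rat, and 2 or 3 without CC-Sed replicate 1, 3, 5 or 6.

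In Ex vs. CC-Ex, 3 of the 24 rose, where 0.442% of all genes rose and 0.0829% fell, and again none of the list fell. These were Cebpd (Log2FC 2.67, SE 0.579, edgeR adjusted p = 0.0329), Nfil3 (1.85, SE 0.445, 0.0434) and Gadd45g (1.81, SE 0.416, 0.0366). The median Log2FC was 0.52. Sik1 had 0.52 (SE 0.443, edgeR adjusted p = 0.470) and Btg2 0.43 (SE 0.333, edgeR adjusted p = 0.430). Whether they differ from the sedentary values is given by the interaction, with unadjusted p-values of 0.0908 for Sik1 and 0.132 for Btg2. Gadd45b had 1.53 (SE 0.401, edgeR adjusted p = 0.0578) in Ex vs. CC-Ex. Gadd45g had 1.24 (SE 0.409, edgeR adjusted p = 0.0644) in Sed vs. CC-Sed. Their unadjusted edgeR p-values in the interaction were 0.664 and 0.326. The count of 3 was 0 without any 1 Ex rat or without CC-Ex replicate 5 or 6, and it was 1, 5 and 6 without CC-Ex replicates 2, 4 and 1. It was also 0 with upper-quartile factors, with only the 12 rats compared or with the block. Without CC-Ex replicate 5 the Log2FC was 2.23 for Cebpd, 1.32 for Nfil3 and 1.28 for Gadd45g (edgeR adjusted p = 0.0923, 0.153 and 0.121).

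**Figure D5:**
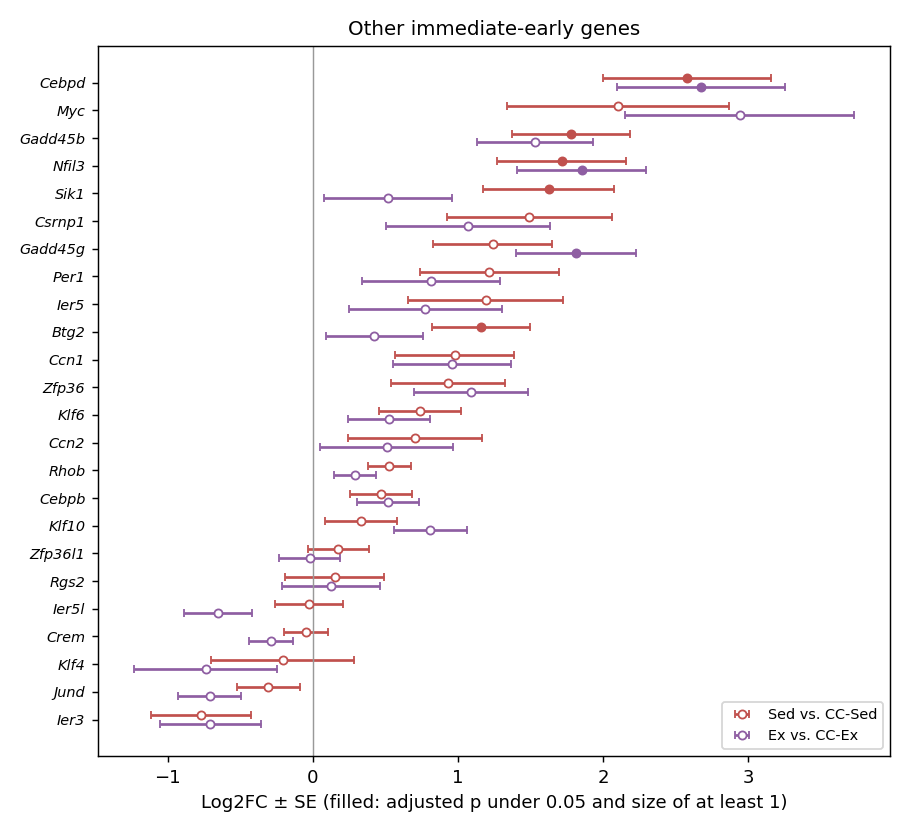
Log2FC with its SE of the 24 other immediate-early genes in Sed vs. CC-Sed (red) and Ex vs. CC-Ex (purple), ordered by the former. The filled points are the 5 and 3 genes that passed the test, with Cebpd near the top in both (2.58 and 2.67).

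Upstream of the members, the kinases and factors that switch on immediate-early genes were present for 35 of 36 listed. In Sed vs. CC-Sed, Rps6ka5, the kinase MSK1 that phosphorylates CREB and histone H3, rose (Log2FC 1.09, SE 0.284, edgeR adjusted p = 0.0288). Mrtfa, an SRF cofactor, fell (Log2FC -1.63, SE 0.342, edgeR adjusted p = 0.0133), from a mean of 27.4 to 8.85 CPM. None of the 35 was called in Ex vs. CC-Ex, where Mrtfa had -0.97 (SE 0.336, edgeR adjusted p = 0.115). With the adjusted p alone as the rule, the count in Sed vs. CC-Sed was 4, with Crebbp (0.54) and Elk3 (-0.69) below the fold minimum. Srf had Log2FC of -0.34 and -0.30 and Creb1 of -0.15 and 0.17 in the CC comparisons, none of them called. The 2 calls became 1 without Sed replicate 2, 3 or 5 or without CC-Sed replicate 1, 5 or 6.

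Among partners and repressors, 17 of 20 listed genes were present. Mafk, another small MAF protein, rose in Sed vs. CC-Sed (Log2FC 1.13, SE 0.338, edgeR adjusted p = 0.0479), as did Bach1, a repressor that binds DNA with small MAF proteins (1.54, SE 0.467, 0.0495). In Ex vs. CC-Ex their Log2FC was 1.04 and 1.57, with edgeR adjusted p of 0.0957 and 0.0813, and none of the 17 was called. Mafg, the remaining small MAF gene, had Log2FC of 0.53 and 0.60 and did not pass the test. Nab1, a corepressor of Egr proteins, had -0.56 in Sed vs. CC-Sed (SE 0.122, edgeR adjusted p = 0.014), under the fold minimum. Both calls of this list were lost without any 1 Sed rat and without CC-Sed replicate 1, 3, 5 or 6. In Ex vs. CC-Ex, 2 genes were called without CC-Ex replicate 1 or 4.

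Metabolic genes linked to NR4A receptors in muscle were all 16 present. None was called in either CC comparison by edgeR, where 5 were higher and 2 lower at an unadjusted p below 0.05 in Sed vs. CC-Sed and 4 higher and 0 lower in Ex vs. CC-Ex, and DESeq2 called 1 and 2. Over all genes the shares at that threshold were 16.7% higher and 11.7% lower in Sed vs. CC-Sed and 14.8% higher and 7.72% lower in Ex vs. CC-Ex. Cpt1b, which admits fatty acids to mitochondria, had a Log2FC of 0.89 in Sed vs. CC-Sed (SE 0.198, edgeR adjusted p = 0.0147), under the fold minimum. Pdk4, the kinase that shuts off pyruvate dehydrogenase, had 2.36 (SE 0.81, edgeR adjusted p = 0.0718) in Sed vs. CC-Sed and 2.32 (SE 0.808, edgeR adjusted p = 0.116) in Ex vs. CC-Ex. Lpin1, a phosphatidate phosphatase and coactivator, had 1.54 (SE 0.430, edgeR adjusted p = 0.068) in Ex vs. CC-Ex. Leaving out CC-Sed replicate 2 gave 1 call in Sed vs. CC-Sed, and CC-Ex replicates 1 and 4 gave 1 and 2 in Ex vs. CC-Ex. The median Log2FC of the 16 was 0.088 and 0.085, beside 0.021 and 0.013 for all genes.

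Heat shock genes, a separate stress response, were present for 10 of 12. By edgeR and by DESeq2 none was called in a CC comparison, with 1 (Bag3, 0.43) and 0 at an unadjusted p below 0.05, beside 28.4% and 22.6% of all genes. In CC-Sed vs. CC-Ex all 10 had a Log2FC below 0, and 4 had an unadjusted p below 0.05, without a call, beside 2.16% of all genes at that threshold. The 4 were Hspa1b (-1.49), Hsp90aa1 (-0.77), Hspb1 (-0.65) and Bag3 (-0.51). The median Log2FC of the 10 was -0.51, against 0.0099 for all genes. The saline rats had the same direction. In Sed vs. Ex, 1 of the 10 was above 0 and the median was -0.32, against 0.0072 for all genes. The median of the interaction was -0.12, against 0.0044. The summed level of all 10 moved with Atf3 (r = 0.723) and Nr4a3 (r = 0.609) across the 24 rats with group means subtracted. Cryab had the highest mean of the 10 in every group (608 to 934 CPM) and so weighs most in that sum.

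Among the members, slow-fiber genes moved most closely with Atf3. The 4 slow-fiber markers present of 7 listed had a summed level of 56.8 to 2102 CPM in Sed, 59.9 to 6439 in Ex, 81.0 to 7381 in CC-Sed and 16.9 to 5285 in CC-Ex, with none called in any comparison and a median Log2FC of 1.83 in Sed vs. CC-Sed. Their sum had r = 0.707 with Atf3, 0.501 with Nr4a3 and 0.065 with Maff over 24 rats. Without CC-Ex replicate 5 these were 0.686, 0.478 and 0.521, so the gap between Nr4a3 and Maff rested on that rat. Single markers above 0.7 over the 24 rats were Tpm3 (0.72) and Tnni1 (0.706) for Atf3. Maff had r = 0.812 with Sdc4, listed as a satellite cell marker although other cells express it, while Pax7 of that list was not analysed here. Sdc4 was called in both CC comparisons (Log2FC 2.32 and 1.98, SE 0.494 and 0.488, edgeR adjusted p = 0.0137 and 0.049). The former call held in each of the 12 fits without 1 rat. The latter held in 2, those without CC-Ex replicate 1 or 4, and was lost in the others (Log2FC 1.48 and adjusted p = 0.156 without CC-Ex replicate 5), as it was with upper-quartile factors, with only the rats compared and with the block. Without CC-Ex replicate 5 the r of Maff with Sdc4 was 0.759. The part of these cells or fibers in the members' values was not tested. The summed level of the 2 satellite cell markers present, Sdc4 and Myf5, had r = 0.811 with Maff, and 0.756 without CC-Ex replicate 5. Group means were 17.6 to 102 CPM for Sdc4 and 1.27 to 2.43 CPM for Myf5. The sum is thus nearly all Sdc4 and adds nothing to that gene's own r. No other summed marker list, of muscle, endothelial, leukocyte, fibroblast, smooth muscle, adipocyte, erythroid or nerve genes, had r above 0.7 in size with a member.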

How the data were processed

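Polyadenylated RNA from 24 rats was sequenced as stranded libraries. The authors trimmed reads, ran Salmon against transcripts of mRatBN7.2 and summed the estimates per gene. The deposited values are estimated counts, whole and none under 10. They were rounded and used without further mapping. Groups came from the sample labels. The library number is the number that opens each library name. It ran from 9 to 24 in Sed, 7 to 23 in Ex, 4 to 21 in CC-Sed and 1 to 14 in CC-Ex. In R 4.3.3, edgeR 4.0.16 (TMM, quasi-likelihood F test, 4 groups, 24 rats, no block) was fitted to all 10851 genes; its expression filter removed none. SE was the size of the Log2FC over the square root of F. Correlations used log2 CPM with a prior count of 2, and pairs of members 100000 permutations within groups. The precision is limited by the spread between animals.

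Members and lists were chosen with earlier results of these data known. Named genes were all members, called genes of each list (otherwise those with the smallest p), the 3 genes most like each member and markers above 0.7. Some others, such as Srf, Creb1, Mafg, the heat shock genes and the fibroblast markers, were named outside this rule. Alternatives were DESeq2 1.42.0, limma 3.58.1 (voom), upper-quartile factors, no filter, a mean of at least 50 counts, only the rats compared, a replicate block, the library number, the adjusted p alone and each rat left out. The script was tested on simulated data. Promoter sequences are RefSeq (GRCr8).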

Additional observations from a re-analysis of the deposited data

Results flagged for a closer look

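Of 32 sets of 6 rats (8 genes in 4 groups), 7 held 1 rat far above the rest by Dixon's test on CPM. The test's rate of about 1 flag in 20 sets by chance is for normal values, and CPM of these genes are skewed. On log2 CPM, a scale chosen after seeing the data, 1 of the 32 sets passed, that of Atf3 in Ex, so the number of sets is no excess to be read. Ex replicate 5 was such a rat in 3 genes, at 485 CPM for Nr4a1 (next 228), 54.4 CPM for Fos (next 21.9) and 19.3 CPM for Atf3 (next 9.29). CC-Ex replicate 5 had 54.7 CPM for Maff (next 17.6) and CC-Ex replicate 2 had 6.65 CPM for Nr4a2 (next 2.11). CC-Sed replicate 6 had 13.5 CPM for Egr1 (next 8.39), and Sed replicate 6 had 7.13 CPM for Nr4a3 (next 3.85). The values of a rat in several genes come from the same library and are not separate observations.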

How the results depend on the processing

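In Sed vs. CC-Sed the 2 called members (Nr4a3 and Maff) were called under every alternative run and in each of the 12 fits without 1 rat (Log2FC 3.29 to 4.01 and 2.40 to 2.84). In Ex vs. CC-Ex the count of 1 became 2 with DESeq2 (Egr1 added) and 0 with upper-quartile factors, with only the rats compared and with the replicate block, and 0 to 1 without 1 rat. Sed vs. Ex, CC-Sed vs. CC-Ex and the interaction kept 0. The replicate numbers did not pair the rats: same-numbered rats correlated at a mean of 0.0947 (-0.505 to 0.357) in Sed vs. CC-Sed and -0.172 in Ex vs. CC-Ex. The block moved the called genes from 203 to 172 and from 57 to 1. The count of 203 in Sed vs. CC-Sed was 318 by DESeq2, 383 by voom, 701 by adjusted p alone and 73 to 404 without 1 rat, and that of 57 in Ex vs. CC-Ex was 214, 133, 108 and 2 to 251, with 20 by upper-quartile factors, 36 with the library number and 1 with only the rats compared.

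The alternatives for list counts, named genes that are no members and correlations without CC-Ex replicate 5 were chosen after seeing the data. In Sed vs. CC-Sed the other immediate-early genes (5) had 8 by voom and 2 to 8 without 1 rat. The upstream genes (2) had 1 with upper-quartile factors, 4 by adjusted p alone and 1 to 3 without 1 rat. The partners (2) had 1 with a mean of 50 counts or voom, 4 by adjusted p alone and 0 to 2 without 1 rat. The metabolic genes (0) had 1 by DESeq2, only the rats compared, the library number or adjusted p alone, 2 by voom and 0 to 1 without 1 rat. In Ex vs. CC-Ex the other immediate-early genes (3) had 5 by DESeq2, 0 with upper-quartile factors, only the rats compared or the block, 1 with the library number and 0 to 6 without 1 rat. The upstream genes (0) had 2 by voom and 0 to 1 without 1 rat, the partners (0) 2 by DESeq2 and 0 to 2, and the metabolic genes (0) 2 by DESeq2 and 0 to 2. Heat shock stayed at 0. Of the 24 most alike genes, 13 were shared by Spearman's rho and 14 without centring.

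Of the 40 Log2FC of members (8 genes in 4 comparisons and the interaction), 30 kept their sign under every alternative run, of which 27 were uncalled, and 10 uncalled ones turned under at least 1. With the library number, Log2FC turned to 0.21 (Nr4a1) and 0.50 (Fos) in Ex vs. CC-Ex, 0.030 (Nr4a3) in Sed vs. Ex, 0.079 (Nr4a2) and 0.18 (Fos) in CC-Sed vs. CC-Ex, and 0.011 (Jun) and 0.055 (Maff) in the interaction. Voom turned Fos to 0.095 in Ex vs. CC-Ex, Nr4a3 to 0.025 in Sed vs. Ex and Nr4a2 to 0.0038 in CC-Sed vs. CC-Ex. The block turned Fos to 0.083, and upper-quartile factors Jun to -0.027, in Ex vs. CC-Ex. Leaving out 1 rat gave ranges across 0 in Ex vs. CC-Ex for Nr4a1 (-0.41 to 0.29), Fos (-0.60 to 0.53), Jun (-0.061 to 0.15) and Atf3 (-0.73 to 0.33), in Sed vs. Ex for Nr4a3 (-0.52 to 0.21), in CC-Sed vs. CC-Ex for Nr4a2 (-1.06 to 0.079), Egr1 (-0.030 to 0.31) and Fos (-0.60 to 0.25), and in the interaction for Jun (-0.19 to 0.019) and Maff (-1.001 to 0.17). The library number went partly with group and was lowest in CC-Ex, so the fit with it cannot fully separate library number from group. The causes were not tested.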
